A study of Mus musculus with 743 samples.

Results

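The 8 genes described here, Ngfr, Ncam1, L1cam, Chl1, Cdh2, Cdh19, Gap43 and Gfra1, encode surface receptors, adhesion molecules and a growth-associated protein linked to the immature stage of Schwann cells (SCs), and they were chosen by name out of the 25700 genes of the count table. All 8 had reads in the cells analysed. Only some of them passed the test at this age. Ngfr, at the threshold, and Ncam1, L1cam and Chl1 were lower in promyelinating SCs. Cdh2, Cdh19, Gap43 and Gfra1 did not pass the same test. The study itself used Ngfr, Ncam1 and L1cam to mark immature SCs in these cells, so their direction is not independent evidence for that label. Cdh2 and Cdh19 were lower on both plates without passing. Gap43 had a read in 2.79% of the cells of plate 1 and 2.10% of plate 2. With 2 plates, a gene that did not pass is not shown to be unchanged.

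Immature SCs of the perinatal nerve surround bundles of axons, sort out single large axons by proliferating and extending processes between them, and then either start to myelinate as promyelinating SCs or stay with several small axons as Remak cells. The low-affinity neurotrophin receptor p75 (Ngfr) and the cell adhesion molecules NCAM (Ncam1) and L1 (L1cam) are classical surface marks of immature and Remak SCs that are lost as a cell myelinates. N-cadherin (Cdh2) joins SCs to each other and to axons at early stages, cadherin-19 (Cdh19) is an SC-lineage cadherin, CHL1 (Chl1) is a close relative of L1, GAP-43 (Gap43) is a membrane-bound cytoplasmic protein of growing processes, and GFRα1 (Gfra1) is the GDNF-binding co-receptor of RET.

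The cells came from sciatic nerves of mice at postnatal day 1 that carried beta-actin dsRed and, in cells in which P0cre had recombined the reporter, eYFP. P0cre acts in the SC lineage, so the sort on eYFP defined the cells, and both transgenes were shared by all groups. Each of the 2 plates held its own pool of 1 male and 1 female mouse and was the replicate (n = 2). Within each plate the cells were divided by cuts on 4 genes in reads scaled to 1000000 per cell (CPM): cycling cells (Mki67 plus Top2a at least 50 CPM), promyelinating cells (not cycling, Ncmap at least 50 CPM) and other cells, which were split into Cdkn1c-high (at least 200 CPM) and Cdkn1c-low. On plates 1 and 2 this gave 53 and 57 cycling, 116 and 125 Cdkn1c-low, 59 and 92 Cdkn1c-high and 59 and 60 promyelinating cells. These classes are ranges of single genes rather than cell types, and 66 of the 392 other cells lay near the Cdkn1c cut, between 100 and 400 CPM, against 9 of 511 noncycling cells at 25 to 100 CPM of Ncmap.

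The 621 cells kept had 26673 to 2291613 reads each, 529513453 in all. Among SC markers, Sox10 stood at 149.7 to 228 CPM and Erbb3 at 228 to 419 CPM over the classes and plates, S100b ranged from 34.2 to 288 CPM, 7 of 10 promyelinating markers were higher in promyelinating than in other cells, and 6 of 7 cycling markers were higher in cycling than in other cells (edgeR, adjusted p under 0.05). Of 10 neuron or axon markers, Syt1, Elavl4, Rbfox3, Slc17a6 and Isl1 had 0 reads, and the sum of the 10 was at most 23.6 CPM in any class. Median genes detected per cell ran from 2746 in Cdkn1c-low to 3606 in promyelinating cells, at medians of 895355 and 875315 reads per cell. Shares of cells with a read are also given after thinning each cell to 50000 reads, which left out 5 cells. Thinning makes the reads per cell equal and does not correct for the difference in genes detected. A list of 8 genes of the response to dissociation moved with the classes: it summed to 7018 and 7808 CPM in Cdkn1c-low, 3574 and 4462 in Cdkn1c-high, 2205 and 2418 in promyelinating and 4726 and 7160 in cycling cells, and its part in the differences below was not tested. Summed reads cannot separate fewer expressing cells from less RNA per cell, which is why both levels and shares are given.

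All 8 members are protein-coding genes. In GRCm38 (GENCODE M21), Ncam1 spans 49502136 to 49798925 on chromosome 9 (minus strand), Chl1 103510586 to 103750211 on chromosome 6 (plus), Cdh19 110888326 to 110977584 on chromosome 1 (minus), Gap43 42248442 to 42340651 on chromosome 16 (minus) and Gfra1 58235604 to 58455909 on chromosome 19 (minus). Ncam1 and Gfra1 share 417 and 416 of their 8664 and 5476 exon bases with antisense genes. Reads on these shared bases cannot be told apart from those of the antisense genes, since the strand setting of the counting is not given in the sources used here.

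Across the members the level per length was highest for Ncam1. In Cdkn1c-low cells the mean of the plates, in CPM per kilobase of exon, was 60.7 for Ncam1, 42.8 for Cdh19, 19.6 for Ngfr, 13.8 for Chl1, 9.54 for L1cam, 4.41 for Cdh2, 3.66 for Gfra1 and 0.705 for Gap43. Plate values of the neighbours Chl1 and Ngfr did not overlap (12.6 to 14.9 against 16.5 to 22.6), while those of Cdh19 and Ncam1 nearly met (35.2 to 50.4 against 51.2 to 70.2) and those of L1cam and Cdh2 were separated by less than 1 CPM per kilobase (6.75 to 12.3 against 2.66 to 6.15). Cdh2 and Gfra1 overlapped and changed order between the plates (2.66 and 6.15 against 4.74 and 2.59 on plates 1 and 2).

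**Figure D1:**
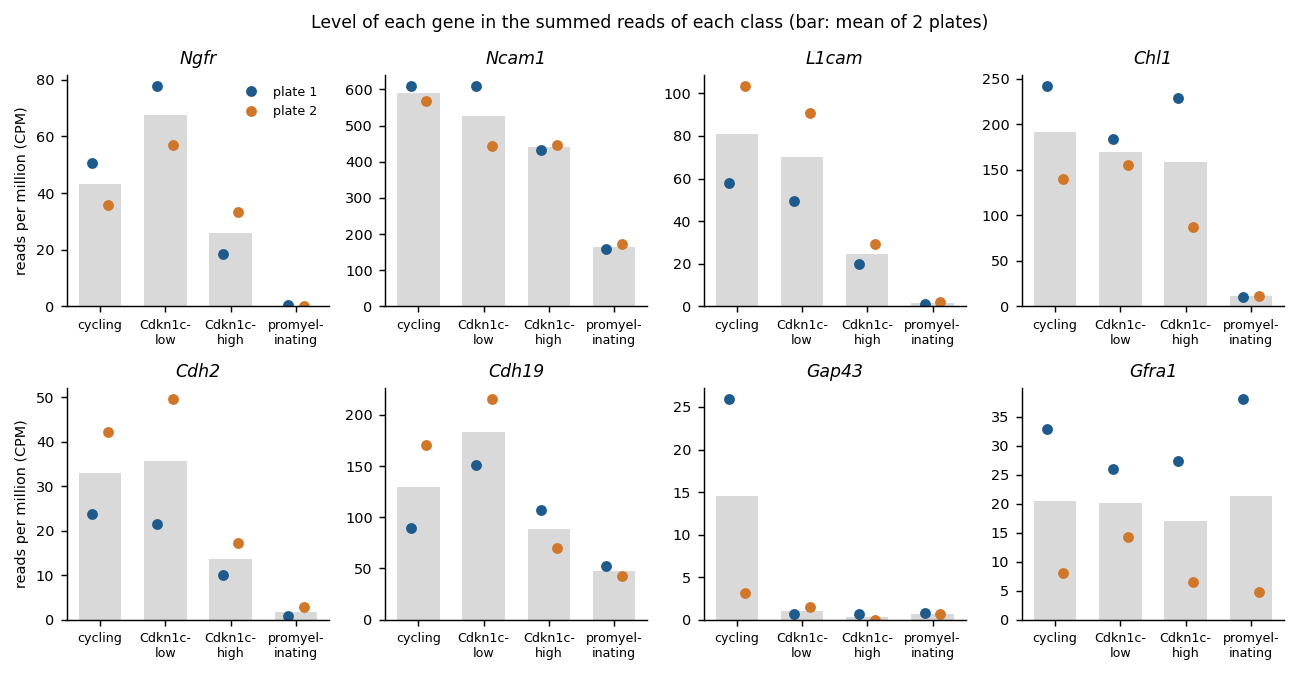
Level of each of the 8 genes in CPM (linear axis from 0, scaled for each gene) in the summed reads of cycling, Cdkn1c-low, Cdkn1c-high and promyelinating cells; points are plate 1 and plate 2 and bars the mean of the 2 plates. Promyelinating cells have the lowest bar for Ngfr, Ncam1, L1cam, Chl1, Cdh2 and Cdh19, Gap43 stands high only in cycling cells of plate 1 (26.0 CPM), and the plates lie far apart for Gfra1.

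The first comparison asked which of these genes distinguish the promyelinating cells, as cut by Ncmap, from the remaining noncycling cells. The study describes Cdkn1c as slightly enriched in its pro-myelinating cluster at this age. The other cells, of which 151 were Cdkn1c-high, may therefore include cells of that stage. Of the 8 members, 4 (Ngfr, Ncam1, L1cam and Chl1) were lower in promyelinating than in other cells and 0 were higher, where 1.29% of the 13292 genes tested were called lower. Ngfr, Ncam1 and L1cam were used by the study itself to mark immature SCs in these cells, so their direction is not independent evidence. The median log2 fold change was -2.67 over the members and -0.07 over all genes tested.

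Ngfr, the p75 receptor through which neurotrophins and their precursors signal, all but disappeared. It reached 57.7 and 46.9 CPM in other cells of plates 1 and 2 and 0.575 and 0 CPM in promyelinating cells, where 2 of 59 and 0 of 60 cells had a read; the latter allows a share of up to 5%. All 30 promyelinating reads were thus in 2 cells of plate 1. The log2 fold change was -7.42 ± 1.48 (SE; edgeR quasi-likelihood test, Benjamini-Hochberg adjusted p = 0.049). This call lay at the threshold: it was lost with the promyelinating cut at 20 CPM of Ncmap (adjusted p = 0.053), with the cycling cut at 100 CPM (0.052) and with at least 2500 genes per cell (0.051). The gene lies on the minus strand of chromosome 11 (95568818 to 95587735 in GRCm38).

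L1cam, a homophilic adhesion molecule that binds axonal L1 and other partners, showed the same order. Its level was 39.4 and 64.5 CPM in other cells and 0.978 and 1.92 CPM in promyelinating cells (log2 fold change -5.08 ± 0.64, edgeR adjusted p = 0.0063). Only 1 of 59 and 2 of 60 promyelinating cells had a read, against 35.3% and 48.0% of Cdkn1c-low cells. One cell gave 100% of the promyelinating reads of plate 1 and another gave 99.0% of those of plate 2. The call held without the cell with most L1cam reads of every class and plate. That removal took 100% and 99.0% of the promyelinating reads, so it could not test the call. With Ncmap at 200 CPM the difference did not pass (edgeR adjusted p = 0.19). L1cam lies on the X chromosome (73853778 to 73896105, minus strand) and shares 100 exon bases with Arhgap4 on the same strand, so reads there cannot be assigned with certainty.

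The stretches before the start of these 2 genes are shown because both were nearly silent in promyelinating cells. Each gives, 5′ to 3′ on the gene's strand, the 120 bases directly before an annotated GENCODE exon, as held in RefSeq promoter windows of GRCm38.p6. For L1cam this is the upstream of its 2 RefSeq starts listed here, which lies inside the longest gene model. Capitals mark matches to the E-box CANNTG or the Sp-type GC box GGGCGG on either strand.
Ngfr, chr11:95587736-95587855: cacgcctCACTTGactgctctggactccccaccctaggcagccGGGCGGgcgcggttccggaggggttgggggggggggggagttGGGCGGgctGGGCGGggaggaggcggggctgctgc
L1cam, chrX:73880835-73880954: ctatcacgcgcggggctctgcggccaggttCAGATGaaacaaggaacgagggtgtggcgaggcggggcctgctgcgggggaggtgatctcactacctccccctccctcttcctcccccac
The Ngfr stretch held 3 GC boxes and the L1cam stretch 0, and each held 1 E-box; none of these overlapped another. Of 32851 RefSeq windows of the same length before a start, 26.5% held the GC box and 40.2% the E-box. The L1cam stretch also held 1 match, not in capitals, to the Egr-type core GTGGGNG, found in 16.9% of windows, and the Ngfr stretch 0. Neither stretch held the Sox core ACAAT (14.1%), the AP-1 site TGANTCA (3.41%) or the TATA box TATAAA (6.34%). A match describes the letters and no binding was measured. The windows of Chl1 and Gfra1 fell within annotated exons and are not printed.

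Chl1, which shares with L1 its row of immunoglobulin and fibronectin domains, stood at 199 and 126 CPM in other cells and at 9.88 and 11.9 CPM in promyelinating cells (log2 fold change -3.82 ± 0.43, edgeR adjusted p = 0.0036). Promyelinating reads came from 6 of 59 and 8 of 60 cells. Within the promyelinating class, thinned to equal depth, all of the cells with a Chl1 read were below their plate's median of Ncmap: 13.8% and 21.4% of the cells below it and 0% and 0% of those above it had a read, from 28 to 30 cells in each part.

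Ncam1, the most abundant member, fell to a lower level without being lost. Its 548 and 445 CPM in other cells compared with 158 and 173 CPM in promyelinating cells (log2 fold change -1.51 ± 0.21, edgeR adjusted p = 0.0099), and 81.4% and 85.0% of promyelinating cells still had a read, with exact 95% binomial intervals of 69.1 to 90.3% and 73.4 to 92.9%. These intervals cover counting error alone, and reads without molecular identifiers are not independent molecules. The median level among promyelinating cells with a read was 151 and 135 CPM, against 442 and 397 CPM in Cdkn1c-low cells. After thinning, the share of cells with an Ncam1 read was also lower, at 50.8% and 72.4% of promyelinating against 89.1% and 95.8% of other cells.

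Cdh2, which builds cadherin junctions between cells, stood at 17.6 and 35.7 CPM in other cells and at 0.825 and 2.79 CPM in promyelinating cells, where 2 and 3 cells had a read. The log2 fold change of -3.80 ± 0.89 did not pass over all genes (edgeR adjusted p = 0.095), and it passed with DESeq2 (adjusted p = 2.4e-04). Cdh19 stood at 136 and 154 CPM in other cells and at 52.7 and 42.2 CPM in promyelinating cells (log2 fold change -1.53 ± 0.37, edgeR adjusted p = 0.11, DESeq2 adjusted p = 0.0034). Of the promyelinating Cdh19 reads of plate 2, 66.1% were in 1 cell.

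Gfra1 and Gap43 did not follow this pattern. Gfra1 was at 38.1 and 4.74 CPM in promyelinating and 26.4 and 10.9 CPM in other cells, so that the plates differed more than the classes (log2 fold change 0.27 ± 1.09, edgeR adjusted p = 0.98). The share of cells with a Gfra1 read was 25.4% and 13.3% in promyelinating and 8.57% and 2.76% in other cells, higher on both plates, and after thinning 20.3% and 10.3% against 6.29% and 1.86%. In Cdkn1c-low cells of plate 2, 95.1% of Gfra1 reads were in 1 cell. Gap43 was at 0.825 and 0.615 CPM in promyelinating and 0.676 and 0.833 CPM in other cells (log2 fold change 0.01 ± 1.46, edgeR adjusted p = 1). Over all classes, 8 of 287 and 7 of 334 cells had a read of Gap43.

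**Figure D2:**
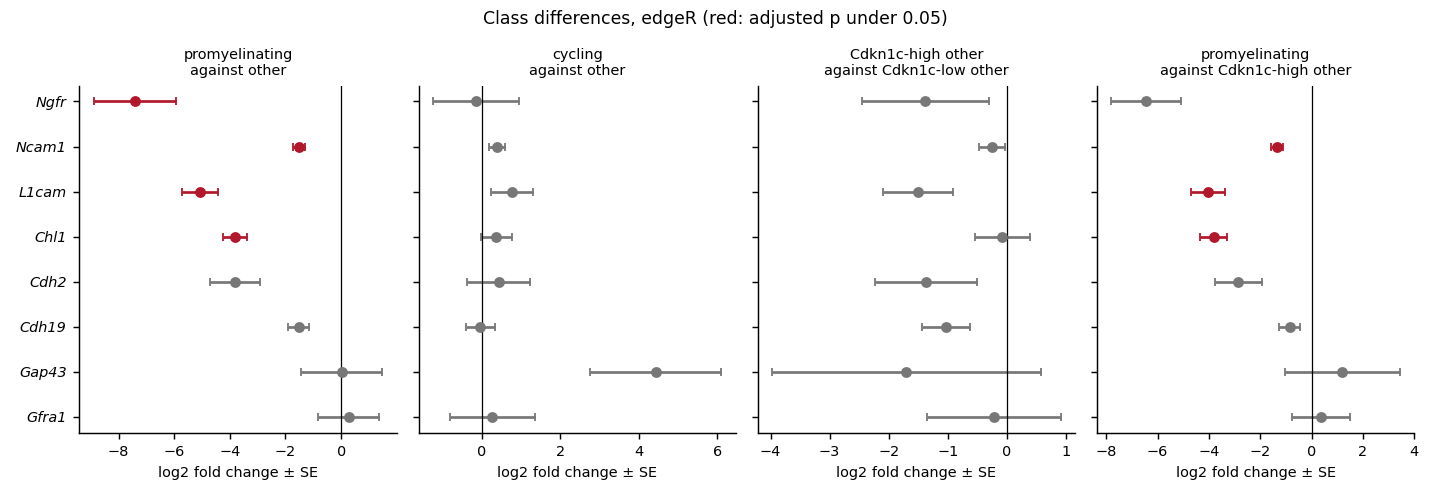
Log2 fold change with its standard error for the 8 genes in each of the 4 comparisons (edgeR on 2 plates per class); red points have an adjusted p under 0.05. Ngfr, Ncam1, L1cam and Chl1 are red in the comparison of promyelinating with other cells, Ncam1, L1cam and Chl1 in that of promyelinating with Cdkn1c-high cells, and none in the remaining 2.

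In the same comparison, 1.79% of all genes tested were called in either direction. Among lists of partners of the members and of genes of similar family, function or stage, the calls lay in 3 lists. Among 11 tested immunoglobulin-type adhesion molecules, 2 fell and 0 rose: Mcam, the melanoma cell adhesion molecule, from 560 and 508 CPM in other cells to 71.5 and 78.0 CPM (log2 fold change -2.76 ± 0.21, edgeR adjusted p = 6.7e-04), and Cadm1, a nectin-like molecule, from 419.9 and 607 to 142 and 80.5 CPM (-2.12 ± 0.34, adjusted p = 0.018). Among 6 growth-associated cytoplasmic proteins, Marcks, an actin-linked substrate of protein kinase C, fell (-1.14 ± 0.18, edgeR adjusted p = 0.017) and the other 5 did not pass. Of 6 other genes reported to mark immature or nonmyelinating SCs, Jun, the transcription factor that opposes myelination, fell (-1.61 ± 0.22, adjusted p = 0.0087), Tnc, an extracellular matrix glycoprotein, fell (-2.54 ± 0.41, adjusted p = 0.019) and Nes, an intermediate filament, rose (1.84 ± 0.36, adjusted p = 0.045). Jun is also induced by dissociation, and Fos, Egr1, Atf3 and Ier2 of the 8 dissociation genes fell as well (edgeR), and their part in the lower level of the members was not tested.

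The partners of the receptors themselves did not pass. None of 6 tested p75 partners or neurotrophin receptors was called; Ntrk3, the receptor of neurotrophin-3, was at 154 and 153 CPM in other and 12.1 and 69.2 CPM in promyelinating cells (edgeR adjusted p = 0.34). Ret, the signalling receptor with which Gfra1 acts, had 0 reads in both classes, and none of 5 tested genes of the GDNF family was called. The same held for 4 tested enzymes of polysialic acid and HNK-1, which modify NCAM and L1, and for 11 tested cadherins and catenins. At an unadjusted p under 0.05 there were 1485 genes in this comparison.

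The second comparison asked whether the members differ with the cell cycle. None of the 8 was called between cycling and other cells, where 1.01% of 13292 genes were called (edgeR). DESeq2 called 1 of the 8, Gap43, where it called 447 genes higher and 366 lower of 13292 tested. With edgeR, 1339 genes had an unadjusted p under 0.05. The other cells are those of the first comparison. Cycling cells had 50.6 and 35.7 CPM of Ngfr, 611 and 568 of Ncam1, 57.9 and 104 of L1cam and 242.5 and 140.0 of Chl1, and log2 fold changes of these 4 lay between -0.14 and 0.76 with standard errors of 0.21 to 1.10. Gap43 was at 26.0 and 3.13 CPM in cycling and 0.676 and 0.833 CPM in other cells, higher on both plates (log2 fold change 4.43 ± 1.68, edgeR adjusted p = 0.42). Of the 1232 Gap43 reads in cycling cells of plate 1, 98.9% were in 1 cell, and 3 of 53 and 4 of 57 cycling cells had a read. Among the growth-associated proteins only Stmn1, a microtubule destabiliser that is also abundant in dividing cells, was called; it rose from 758 and 656 to 4666 and 3216 CPM (2.61 ± 0.25, edgeR adjusted p = 0.0019).

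The third comparison split the other cells by Cdkn1c, which encodes a cyclin-dependent kinase inhibitor and stood at 1132 and 1546 CPM in promyelinating cells. None of the 8 members was called between Cdkn1c-high and Cdkn1c-low cells, where 0.0149% of 13457 genes were called (edgeR). The 2 genes called were Cdkn1c itself, which made the split, and Mpp6, a membrane scaffold protein that was named after its values were seen (212 and 203 against 29.6 and 28.3 CPM). In the same comparison 743 genes had an unadjusted p under 0.05, DESeq2 called 317 genes and none of the members, and limma on mean log2(CPM + 1) called 17 genes, among them Ngfr (adjusted p = 0.046).

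The values without a call were lower in Cdkn1c-high cells on both plates for Ngfr, L1cam, Cdh2, Cdh19 and Gap43, the last at 0.641 and 0 against 0.693 and 1.45 CPM. The share of all genes that were lower on both plates was not determined, so this list is a description only. Ngfr was at 18.6 and 33.3 CPM in Cdkn1c-high and 78.0 and 57.0 CPM in Cdkn1c-low cells (log2 fold change -1.38 ± 1.08, edgeR adjusted p = 0.92). L1cam was at 19.7 and 29.5 against 49.6 and 90.6 CPM (-1.50 ± 0.59, edgeR adjusted p = 0.84). Cdh2 was at 10.1 and 17.2 against 21.5 and 49.6 CPM, and Cdh19 at 107.5 and 70.1 against 151 and 216 CPM. Ncam1 (432.5 and 446 against 608 and 443 CPM) and Chl1 (229 and 86.8 against 183 and 155 CPM) overlapped between the classes. The summed dissociation genes were lower in Cdkn1c-high cells on both plates (3574 and 4462 against 7018 and 7808 CPM), and their part here was not tested.

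The share of cells with an Ngfr read was lower at each finer step of Cdkn1c on both plates. With each cell thinned to 50000 reads, Ngfr was found in 50.7% and 45.7% of the other cells without a Cdkn1c read on plates 1 and 2, in 31.1% and 33.3% of those below 200 CPM, in 25% and 22.6% between 200 and 1000 CPM, and in 3.70% and 10.3% at 1000 CPM and over. L1cam went over the same steps from 29.6% to 20%, 15.6% and 7.41% on plate 1, and from 42.0% to 42.9%, 22.6% and 2.56% on plate 2. Cdh2 was lowest in the last step on both plates (7.41% and 2.56%) but on plate 1 was highest below 200 CPM (22.2%). Cdh19 and Chl1 were not ordered on either plate: Cdh19 went from 50.7% to 33.3%, 43.8% and 22.2% on plate 1 and from 49.4% to 38.1%, 26.4% and 35.9% on plate 2. Chl1 was highest between 200 and 1000 CPM on plate 1 (68.8%) and in cells without a Cdkn1c read on plate 2 (42.0%). Ncam1 stayed at 77.8% or more in every step. Each step held 27 to 81 cells of a plate, and no test was made on cells, which share their plate.

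**Figure D3:**
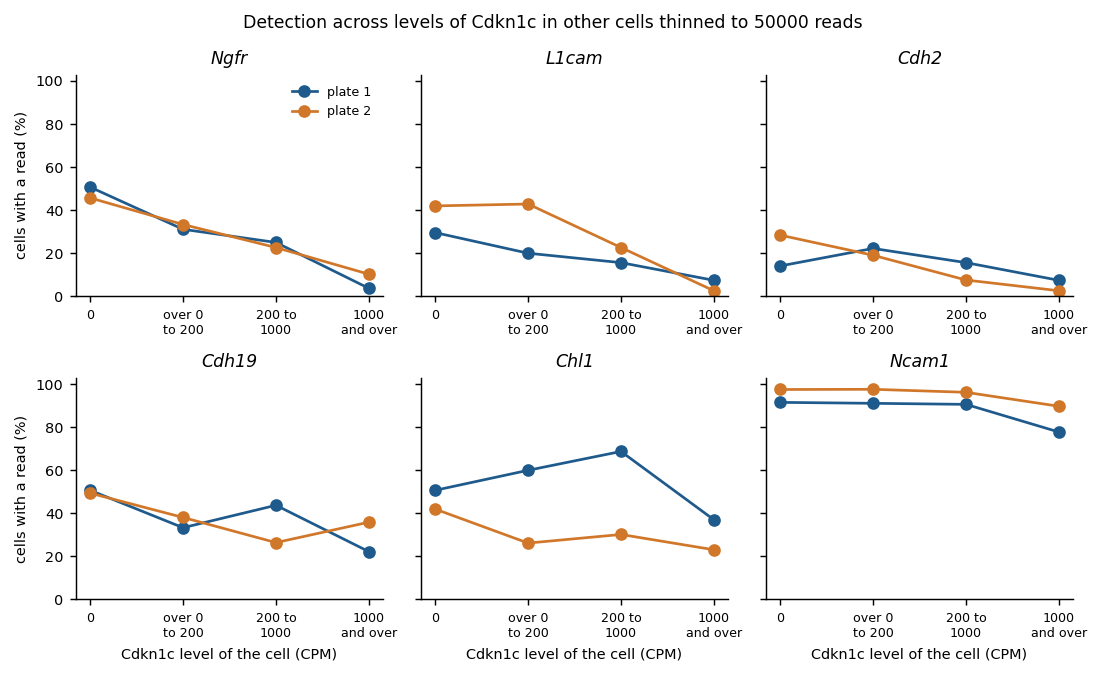
Share of other cells with a read of Ngfr, L1cam, Cdh2, Cdh19, Chl1 and Ncam1 (y axis, %) in 4 steps of the Cdkn1c level of the cell (x axis, CPM), after thinning to 50000 reads; each line is a plate. The Ngfr line falls at each step on both plates, to 3.70% and 10.3%, while Ncam1 stays at or above 77.8%.

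The fourth comparison set promyelinating against Cdkn1c-high cells, which shares its promyelinating cells with the first. Of the 8 members 3 were lower, against 0.743% of 13457 genes called lower (edgeR): Ncam1 (log2 fold change -1.36 ± 0.23, adjusted p = 0.019), L1cam (-4.02 ± 0.66, adjusted p = 0.017) and Chl1 (-3.82 ± 0.52, adjusted p = 0.0064). The L1cam call held in 13 of 17 alternatives; it was lost with the Cdkn1c cut at 400 CPM (adjusted p = 0.060), with Ncmap at 200 CPM (0.29) and with limma on log2(mean CPM + 10) (0.12) and on mean log2(CPM + 1) (0.28). Ngfr, with 18.6 and 33.3 CPM in Cdkn1c-high cells, had a log2 fold change of -6.43 ± 1.36 and missed the threshold (edgeR adjusted p = 0.062). It passed in 8 of 17 alternatives. Among these was that without the cell with most reads in each class (edgeR adjusted p = 0.012). Leaving out that cell took 76.7% of the promyelinating Ngfr reads of plate 1, so this alternative could not test the difference. Across Cdkn1c-low, Cdkn1c-high and promyelinating cells, the mean of the plates was 67.5, 26.0 and 0.288 CPM for Ngfr and 70.1, 24.6 and 1.45 CPM for L1cam. It was 169, 158 and 10.9 CPM for Chl1 and 526, 439 and 165 CPM for Ncam1. None of these genes was called between Cdkn1c-low and Cdkn1c-high cells. There the plates differed in direction for Chl1 (183 and 229 CPM on plate 1, 155 and 86.8 on plate 2) and Ncam1 (608 and 432.5, 443 and 446).

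Few promyelinating cells carried any of the 4 members with the largest fall in the first comparison. These members were picked by that fall, so their absence from this class restates it. After thinning, none of Ngfr, L1cam, Chl1 and Cdh2 was found in 21.6% and 20.3% of Cdkn1c-low cells, in 40.7% and 46.7% of Cdkn1c-high cells and in 93.2% and 82.8% of promyelinating cells. Cycling cells resembled Cdkn1c-low cells in this share, with 19.2% and 24.6%. The mean number of the 8 members found per cell was 2.85 and 2.92 in Cdkn1c-low, 2.19 and 1.90 in Cdkn1c-high, 1.20 and 1.21 in promyelinating and 3 and 3.32 in cycling cells. Of the former 4 genes, 3 or 4 were found in 1 of 59 promyelinating cells of plate 1 and 0 of 58 of plate 2. Each gene alone was found in a low share of these cells, and joint absence was not set against what those shares give.

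Within the Cdkn1c-low cells, which held most of the Ngfr reads, a member was found more often in cells with a read of another member than in cells without one, for most pairs. L1cam had a read in 38.0% of 50 cells with Ngfr and 16.7% of 66 cells without it on plate 1, and in 51.0% of 51 and 36.1% of 72 cells on plate 2, after thinning. Cdh19 was found in 58.0% and 56.9% of cells with Ngfr and 33.3% and 37.5% of cells without it. Chl1 was found in 58.0% and 43.1% of cells with Ngfr and in 51.5% and 31.9% without. Of the 10 pairs among Ngfr, L1cam, Chl1, Cdh2 and Cdh19, which are the members found in 10 to 90% of these cells, the share was higher with the partner on both plates for 10 with all reads and for 8 after thinning. The exceptions after thinning were Cdh19 with Chl1 on plate 2 (44.4% against 46.2%) and Cdh19 with Cdh2 on plate 1 (40.0% against 44.8%). For Ngfr and L1cam, 19 of the 50 cells with Ngfr on plate 1 and 26 of the 51 on plate 2 had a read of L1cam, and no test was made on cells. How often other gene pairs of similar detection are found together in these cells was not determined. The counts of pairs are therefore a description and not a trait of the members.

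**Figure D4:**
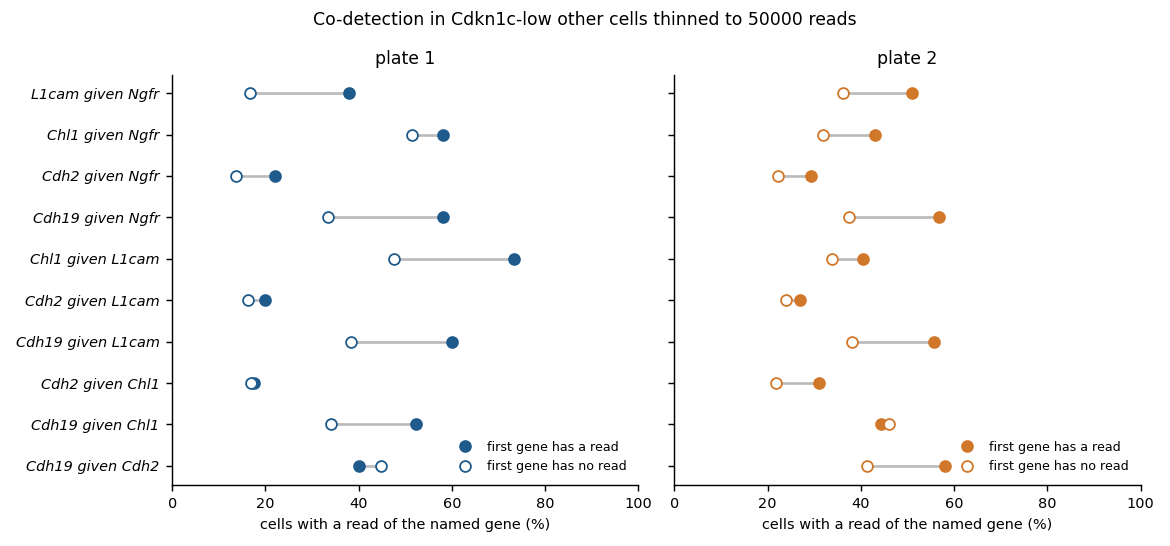
Share of Cdkn1c-low cells (x axis, %) with a read of a gene among cells with a read of a second gene (filled) and without one (open), for 10 pairs on each plate after thinning to 50000 reads. Filled points lie to the right on both plates for 8 of the 10 pairs, and the exceptions are Cdh19 given Cdh2 on plate 1 and Cdh19 given Chl1 on plate 2.

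The genes whose levels were most like those of the members over single noncycling cells (234 on plate 1 and 277 on plate 2) were sought among 6417 genes by the lower of the plates' Pearson r on log2(CPM + 1). For Ngfr they were Entpd2 (r = 0.49 and 0.45), an ectonucleotidase, Scn7a (0.47 and 0.42), a sodium channel gene of nonmyelinating SCs, and Ndrg2 (0.39 and 0.36). For Ncam1 they were Slitrk2, Rarres2 and Rab31 and for L1cam Scn7a, Cavin1 and Wwp1, with a lower r of 0.27 to 0.35. For Chl1 they were Tpm4, Postn and Gpc3, for Cdh2 Ptn, Abca8a and Spry2 and for Cdh19 Cd200, Wwp1 and Gatm, with a lower r of 0.19 to 0.24. For Gap43 (Atp9a, Rnf6 and Praf2) and Gfra1 (Washc4, Emid1 and Scd1) it was 0.15 to 0.20, which in counts this sparse is a listing only. Among the members themselves the closest pair was Ngfr and L1cam (r = 0.36 and 0.25). These are values across cells that share a plate and differ in depth. The noncycling cells include the promyelinating class, in which Ngfr and L1cam were nearly absent, so the r values can restate the class difference of the first comparison.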

How the data were processed

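Single SCs of sciatic nerve at postnatal day 1 were sorted 1 per well into 2 plates and sequenced with Smart-seq2. The authors deposited raw counts of reads per gene and well (25700 genes, 743 wells), with no molecular identifiers. Per the labels, reads were mapped with STAR 2.6.1c and counted with featureCounts; the labels and the methods of the study name different STAR versions and assemblies, all gene IDs are mouse IDs, and the strand setting is not given in the sources used here. Symbols came from GENCODE M21 for 25587 of the IDs. Promoter windows came from RefSeq (GRCm38.p6), where 4 of the 8 members matched, and Cdh2 is not printed.

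Wells with at least 1500 genes were kept (621; 122 set aside), each of 26673 to 2291613 reads. No 2 kept cells were identical, and no doublet caller was run. Counts were summed per plate and class, since cells are not replicates, and tested with edgeR 4.0.16 (R 4.3.3; TMM, filterByExpr, robust quasi-likelihood fit, Benjamini-Hochberg over all genes, threshold 0.05). Cycling, promyelinating and other cells entered 1 fit of 6 sums, a fit of 8 sums split the other cells by Cdkn1c, and both were tested on simulated data. The same mice gave all classes of a plate, and the plates' deviations correlated by 0.13 to 0.21 for all 6 pairs of classes over 3713 genes, so the plate number pairs the samples; the fit with plate as a block was an alternative, as were other scaling, DESeq2 1.42.0, limma 3.58.1, no low-count filter, other cuts and cell filters, thinning to 50000 reads, removal of the cell with most reads of each member, and each plate left out. With 2 plates no exact permutation test can reach 0.05. Shares have exact binomial (Clopper-Pearson) 95% intervals, and the limit at 0 is 3 counts. The members, gene lists and tests were chosen with earlier results of these data known; named were the members, the genes of the classes, list genes past the threshold (at most 4 per list, by adjusted p) with tested partners, and for each member the 3 genes most like it. The values of 2 SC markers are not reported here.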

Additional observations from a re-analysis of the deposited data

Results flagged for a closer look

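The 122 wells set aside for fewer than 1500 genes entered no comparison, and 6 members had reads in them above the limit that a count of 0 allows on both plates. Over both plates, Ngfr was at 10.7 CPM, Ncam1 at 251.7, L1cam at 9.50, Chl1 at 98.1, Cdh2 at 37.6 and Cdh19 at 219 CPM of the reads of these wells. Reads were in 1 to 7 wells of each plate for Ngfr, L1cam, Chl1, Cdh2 and Cdh19, and in 30 and 13 wells for Ncam1. Gap43 and Gfra1 had 0 reads there, which allows up to 0.178 CPM on plate 1 and 0.728 CPM on plate 2. The class of these wells was not determined.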

How the results depend on the processing

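Of the values of single members under tested alternatives, 463 kept direction and side of the threshold, 17 passed it in place of failing, 8 failed in place of passing and 23 changed sign, all of them of members not called. Ncam1 and Chl1 stayed lower in promyelinating cells, and called, in all 15 alternatives against other cells and all 17 against Cdkn1c-high cells; Ngfr was called in 12 of 15 and L1cam in 14 of 15 against other cells, and in 8 and 13 of 17 against Cdkn1c-high cells. Cdh2 was also called without a low-count filter, with DESeq2, without the top cells and with Ncmap at 200 CPM, and Cdh19 with the first 2 of these. The top cells held 76.7% and 86.9% of the promyelinating Cdh2 reads of plates 1 and 2. For Cdh2, Ngfr and L1cam, the alternative without them is therefore no check on the calls. The cause of lost calls was not tested. With plate as a replicate block Ngfr had an adjusted p of 0.034 against other cells, the block changed no member's call in any comparison, and 4 genes were called between Cdkn1c-high and Cdkn1c-low cells; Gap43 and Gfra1 turned to -0.11 and -0.25 in promyelinating against other cells.

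Genes called in promyelinating against other cells, 238, became 521 without a filter, 1026 with DESeq2, 387 with limma on log2(mean CPM + 1), 1053 with limma on mean log2(CPM + 1) and 424 after thinning. In cycling against other cells, 134 became 317, 813, 214, 653 and 258 in the same order and 286 with limma on log2(mean CPM + 10), and members called higher became 1 with DESeq2. Between Cdkn1c-high and Cdkn1c-low cells, 2 became 117 without a filter, 317 with DESeq2, 17 with limma on mean log2(CPM + 1), where 1 member was called lower, 4 after thinning and 1 with Cdkn1c at 400 CPM. In promyelinating against Cdkn1c-high cells, 135 became 487, 809, 228, 844 and 244 in the first order, and 5 members were lower with DESeq2. Of the calls in promyelinating against other cells, 27.7% were higher, and 81.8% with limma on mean log2(CPM + 1), which moved the median of all genes from -0.07 to 0.15; relative to that median the called members were lower still.

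Changed signs were, for Gap43 in promyelinating against other cells, -0.90, -0.19 and -0.0080 with the 3 limma fits, -7.66 without the top cells (from a class left with 0 reads, so no bound), -0.48 with 2500 genes, -1.02 thinned and -0.037 with Ncmap at 20 CPM. For Cdh19 in cycling against other cells they were 0.0069 with RLE scaling, 0.0069 with DESeq2, 0.69 with limma on mean log2(CPM + 1), 0.23 with 2500 genes and 0.00025 with Ncmap at 200 CPM; for Ngfr 0.17 with that limma fit and for Cdh2 -0.029 thinned. In Cdkn1c-high against Cdkn1c-low cells they were for Gfra1 0.20 and 0.22 with limma on log2(mean CPM + 1) and + 10, 0.40 without the top cells, 0.67 with 2500 genes and 0.47 thinned, and for Chl1 0.039 with 2500 genes and 0.14 with Cdkn1c at 400 CPM. Without the top cells Gap43 had no reads left against Cdkn1c-high cells and gave no value. On single plates, with no test, the log2 ratios ranged from -0.44 to 0.29 (Gap43) and -1.20 to 0.53 (Gfra1) in promyelinating against other cells, -0.61 to 0.15 (Cdh19) and -0.45 to 0.31 (Gfra1) in cycling against other cells, -0.49 to 0.0091 (Ncam1), -0.83 to 0.32 (Chl1) and -1.11 to 0.078 (Gfra1) in Cdkn1c-high against Cdkn1c-low cells, and -0.46 to 0.47 (Gfra1) in promyelinating against Cdkn1c-high cells. Members more frequent in Cdkn1c-low than promyelinating cells on both plates, 6, and pairs found together, 10, stayed within 1.5 times.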
